A study of Mus musculus with 18 samples.

Results

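The 10 genes described encode nuclear receptors of the oxidative programme of fat and their coactivators, and their levels were followed through 3 mouse fat depots in warm and cold. They were chosen by name: the receptors Ppara, Ppard and Pparg, their partners Rxra and Rxrg, the estrogen-related receptors Esrra and Esrrg, and the PGC-1 family coactivators Ppargc1a, Ppargc1b and Pprc1. All 10 were found on the arrays, among 18193 genes that had a probe set naming only them, and they were represented by 22 of 45037 probe sets. RNA came from interscapular brown adipose tissue (BAT), subcutaneous white adipose tissue (sWAT) and mesenteric white adipose tissue (mWAT) of female Sv129 mice, 10 weeks old, singly caged on standard chow and kept for 10 days at 28°C or at 6°C. The 6 groups, one for each depot at each temperature, had 3 arrays each, 18 in all. No transgene, deletion or drug was part of any group, and the 28°C groups served as the warm reference for the 6°C groups. The labels do not say which arrays came from the same mouse, so the p-values measure the spread between arrays of a group.

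PPAR proteins sense fatty acids and their derivatives, pair with an RXR and bind DNA next to genes of lipid storage and oxidation. PPARα is best known for fatty acid oxidation, PPARγ for adipocyte differentiation, and PPARδ for oxidative metabolism in several tissues. PGC-1 coactivators do not bind DNA themselves but dock onto these receptors and onto the estrogen-related receptors, and in brown fat PGC-1α is known as a cold-inducible coactivator of mitochondrial and thermogenic genes.

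Promoter windows are shown for 4 genes whose levels are set against each other below: Ppara and Ppargc1a, the receptor and the coactivator that sit at the centre of the cold comparison, and Rxra and Rxrg, of which Rxrg was called between depots and Rxra was not. Each window runs from 250 bases before to 50 bases after a RefSeq transcript start on GRCm38.p6, written along the gene's strand. Windows were used for 9 of the 10 genes, 16 in all, and those of Ppargc1b were left out. Capitals mark the motif named for each window below. The Ppara window, chr15:85735526-85735825 on the plus strand, holds the palindromic NRF1 motif GCGCATGCGC 31 bases before the start, a motif found in 0.971% of 32851 mouse promoter windows of the same length. The Ppargc1a window, chr5:51567676-51567975 on the minus strand, holds the short cAMP response motif TGACGT on its opposite strand from position -50, as 7.51% of promoters do. The second Rxra window, chr2:27709042-27709341 on the plus strand, and the second Rxrg window, chr1:167618015-167618314 on the plus strand, both hold the estrogen-related receptor motif AAGGTCA, present in 4.72% of promoters, at -49 and -89.
Ppara: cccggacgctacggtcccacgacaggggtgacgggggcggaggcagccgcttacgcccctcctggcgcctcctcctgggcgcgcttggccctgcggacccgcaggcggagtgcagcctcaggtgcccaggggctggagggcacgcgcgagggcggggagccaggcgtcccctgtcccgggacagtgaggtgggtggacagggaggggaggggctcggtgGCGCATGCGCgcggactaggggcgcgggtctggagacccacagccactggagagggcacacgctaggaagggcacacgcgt
Ppargc1a: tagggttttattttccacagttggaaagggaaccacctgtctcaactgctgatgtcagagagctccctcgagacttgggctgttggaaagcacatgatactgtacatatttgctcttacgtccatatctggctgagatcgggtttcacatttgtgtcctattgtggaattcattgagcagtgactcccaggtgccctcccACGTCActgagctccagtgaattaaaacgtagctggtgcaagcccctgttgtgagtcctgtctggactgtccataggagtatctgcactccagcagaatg
Rxra: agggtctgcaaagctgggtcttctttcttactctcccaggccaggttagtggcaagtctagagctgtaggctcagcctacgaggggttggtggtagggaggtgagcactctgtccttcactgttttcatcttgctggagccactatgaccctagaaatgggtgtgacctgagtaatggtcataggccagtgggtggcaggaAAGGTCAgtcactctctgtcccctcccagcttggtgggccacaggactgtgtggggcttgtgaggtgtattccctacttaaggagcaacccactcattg
Rxrg: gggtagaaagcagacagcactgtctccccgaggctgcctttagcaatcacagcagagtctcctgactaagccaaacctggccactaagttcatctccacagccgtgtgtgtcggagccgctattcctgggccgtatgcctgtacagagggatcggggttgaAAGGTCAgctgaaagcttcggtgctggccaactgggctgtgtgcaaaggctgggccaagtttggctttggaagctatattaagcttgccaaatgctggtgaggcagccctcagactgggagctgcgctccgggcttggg
The shorter receptor motif AGGTCA, which lies inside AAGGTCA, also occurred in the first and the second of 3 Pparg windows, in the Pprc1 window and, on the opposite strand from position -87, in the printed Rxra window, against 16.3% of all promoters. The full cAMP response motif TGACGTCA (1.79% of promoters) and the direct repeat AGGTCANAGGTCA, where N is any base (0.0396% of promoters), were in none of the 16 windows. A match describes letters in a window and is not a measured binding site.

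Levels are log2 of the deposited intensity of a gene's brightest probe set, and a difference of 1 on this scale is a 2-fold change. The probe sets that carry the calls below are 1457721_at for Ppara, 1439797_at for Ppard, 1455267_at for Esrrg and 1434100_x_at for Ppargc1a. Array medians lay between 6.97 and 7.20, and a level below them can carry background that shrinks a fold change. This matters for Ppara in warm sWAT and on part of the mWAT arrays. Measured adipocyte markers (6 genes) were high on all 18 arrays, with a mean between 12.35 and 13.43, and 9 brown adipocyte markers averaged 11.71 to 11.86 in warm BAT and 12.66 to 12.71 in cold BAT. The same 9 genes averaged 8.49 to 8.94 in warm sWAT and 10.67 to 11.12 in cold sWAT, and they were lowest in mWAT, at 7.48 to 7.85 and 8.60 to 8.85. Cells other than adipocytes were visible too. Mammary epithelial markers (10 genes) averaged 11.09 to 12.32 in warm and 10.48 to 10.61 in cold sWAT and 4.51 to 7.64 in BAT, and mesothelial and neuronal markers were highest in mWAT, from 10.13 and 10.53 upward. T and B cell markers (18 genes) were low in BAT, averaging 5.35 to 5.96. Their average in sWAT was 8.69 to 10.53, and in mWAT it was 10.41 to 10.61 on 4 arrays but only 6.20 and 6.26 on array 3 of each mWAT group. Skeletal muscle markers (17 genes) ran from 6.22 to 12.62 and were highest on arrays 2 and 3 of BAT at 28°C. Pancreatic markers reached 14.11 on array 2 of mWAT at 6°C, 10.52 on array 3 of BAT at 6°C and 9.94 on array 1 of mWAT at 28°C.

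**Figure D1:**
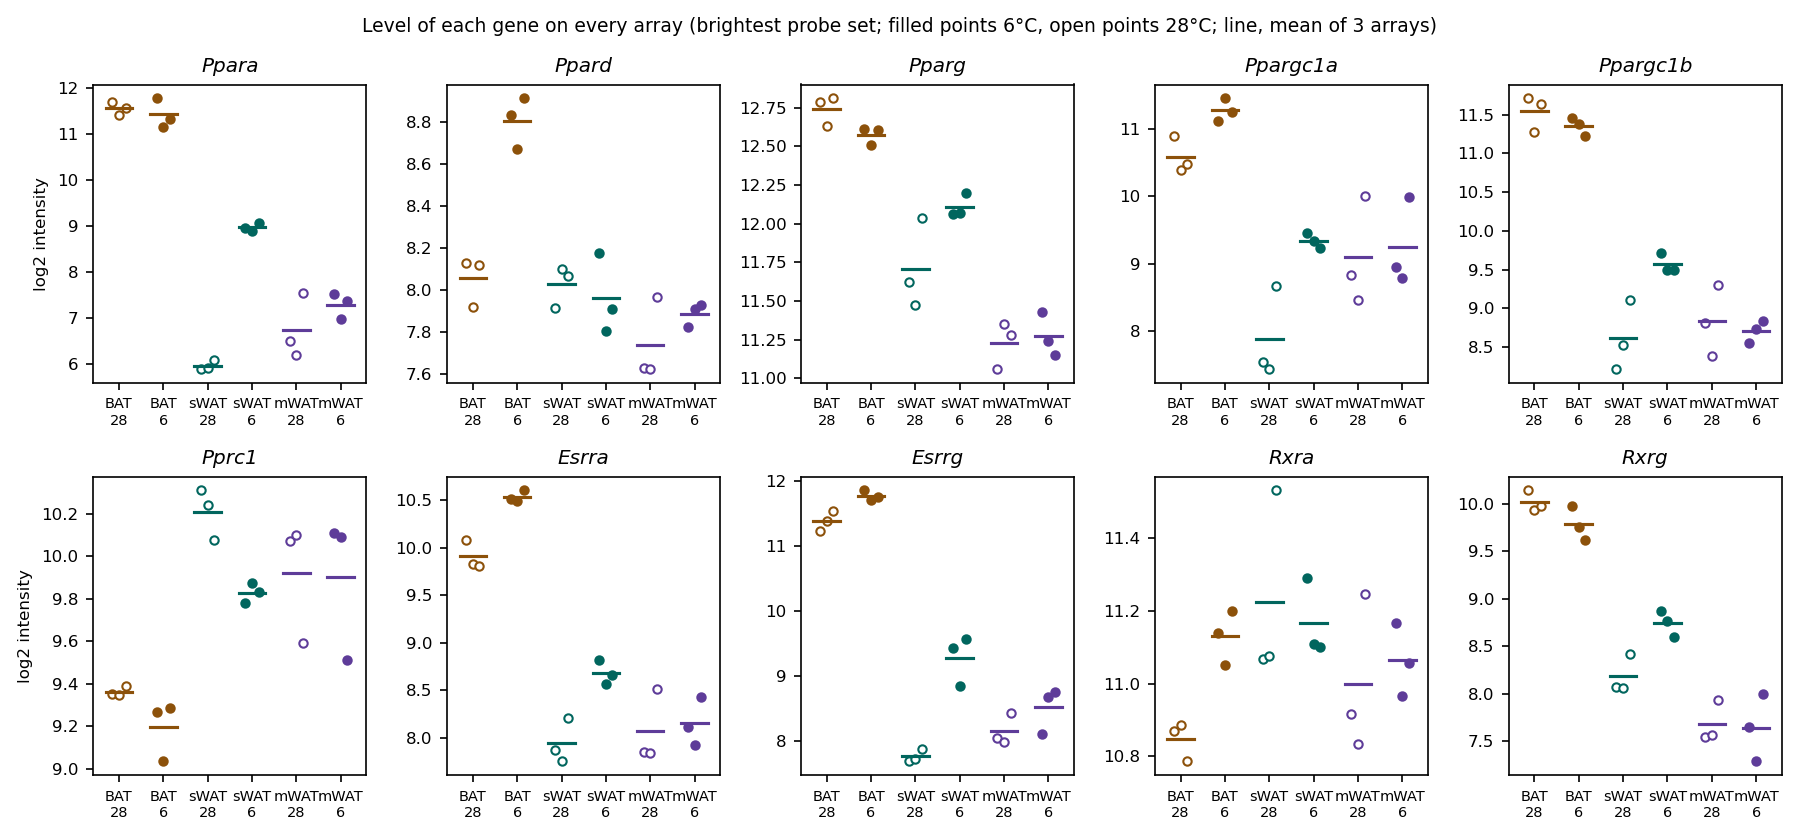
Level of the 10 genes on each of the 18 arrays, as log2 intensity of the brightest probe set, with 3 points per group, open at 28°C and filled at 6°C, and a line at the group mean; each panel has its own axis. Ppara in sWAT moves from 5.89 to 6.09 at 28°C up to 8.90 to 9.08 at 6°C, Ppard separates only BAT at 6°C, and Pprc1 has both BAT groups below all white fat points.

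Cold raised 2 of the 10 genes in sWAT, 1 in BAT and 0 in mWAT at an adjusted p below 0.01 (limma, adjusted over all probe sets). In sWAT the genes were Ppara and Esrrg, in BAT the gene was Ppard, and no member fell in any depot. Across all genes tested, 0.720% rose and 0.0220% fell in sWAT, 2.80% rose and 2.53% fell in BAT, and 0.00550% rose and 0% fell in mWAT. The median change of the 10 members was 0.65 in sWAT, where the median over all genes was -0.002, against 0.08 in BAT and 0.08 in mWAT, where it was 0.01 and 0.01 over all genes. The arrays at 6°C lay wholly above those at 28°C for 7 members and wholly below for 1 in sWAT, wholly above for 5 and below for 2 in BAT, and overlapped for all 10 in mWAT. This count was not made over all genes, so it describes the members and does not set them apart from other genes. An unadjusted p below 0.05 was reached by 8 members in sWAT, 2 in BAT and 0 in mWAT. Of all 45037 probe sets, 5562 reached it in sWAT, 11852 in BAT and 1819 in mWAT. The share of members in BAT was therefore not above that of all probe sets.

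Ppara, the fatty acid receptor, had the largest cold change of the members. At 28°C the sWAT arrays read 5.89, 5.93 and 6.09, and the cold ones 8.97, 8.90 and 9.08. The cold arrays lay far above the warm ones, and both groups were tight. The rise was 3.01 ± 0.27 (SE, n = 3 per group) on the log2 scale, 8.08-fold, at an adjusted p of 7.7e-05, and without any one array it stayed between 2.97 and 3.07 with an adjusted p of at most 0.00097. Since the warm level was below the array median, the exact size of the fold is less sure than its direction. Markers of other cells moved in the same comparison: 6 of the 9 brown adipocyte markers were called higher and 0 lower, with a median change of 1.82, and the mammary average was lower on every cold array, with 0 of 10 genes called by limma, 3 at an unadjusted p below 0.05 and a median of -0.71. Their part in the Ppara value was not tested. In these tissue samples fewer cells of a type and less RNA per cell cannot be told apart. The other Ppara probe sets rose as well, by 2.41 and 2.61.

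In BAT, Ppara read 11.70, 11.41 and 11.57 at 28°C and 11.78, 11.16 and 11.33 at 6°C. These arrays overlapped, and the change was -0.14 (95% confidence interval -0.71 to 0.44, adjusted p 0.82). In mWAT it read 6.51, 6.20 and 7.55 at 28°C and 7.52, 6.98 and 7.38 at 6°C. Those overlapped through warm array 3, the array with few T and B cell transcripts, and the change was 0.54 (95% interval -0.03 to 1.11, adjusted p 1).

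Ppard, the broadly expressed PPAR, was the only member called in BAT. It read 8.13, 7.92 and 8.12 at 28°C and 8.83, 8.67 and 8.91 at 6°C. All cold arrays exceeded all warm ones, and the cold BAT arrays were also above every white fat array. The rise was 0.75 ± 0.13 (SE), 1.68-fold, at an adjusted p of 0.002. Skeletal muscle markers moved with the comparison, averaging 8.60, 12.62 and 12.16 at 28°C and 7.28, 9.99 and 8.05 at 6°C in BAT, and with that average as a covariate the change was 0.65 at an adjusted p of 0.016. A second Ppard probe set, below the array medians everywhere, gave -0.17 in BAT, and the call was lost without warm array 2 or without cold array 3 (adjusted p up to 0.013). Pancreatic markers averaged 10.52 on cold array 3, against 6.57 and 5.81 on cold arrays 1 and 2, and their part was not tested. In sWAT Ppard stayed at 7.91 to 8.10 in warm and 7.81 to 8.17 in cold (change -0.06, adjusted p 0.91), and in mWAT at 7.63 to 7.97 and 7.82 to 7.93 (0.15, adjusted p 1).

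Pparg, the receptor that adipocytes need to differentiate, was bright in every depot. It read 11.62, 11.47 and 12.03 in sWAT at 28°C and 12.06, 12.07 and 12.20 at 6°C. The groups just failed to overlap, and the difference of 0.40 ± 0.14 (SE) did not pass (adjusted p 0.21). BAT gave 12.63 to 12.81 in warm and 12.51 to 12.61 in cold, a change of -0.17 with an adjusted p of 0.49. mWAT gave 11.06 to 11.35 and 11.15 to 11.43, a change of 0.04 with an adjusted p of 1.

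Of the heterodimer partners, Rxra was nearly level. Its 18 values ran only from 10.79 to 11.53, and its cold changes of 0.28 in BAT, -0.06 in sWAT and 0.07 in mWAT had adjusted p values of 0.22, 0.93 and 1. Rxrg, a partner with a narrower tissue distribution, read 8.07, 8.06 and 8.42 in sWAT at 28°C and 8.88, 8.77 and 8.60 at 6°C. Cold arrays were all higher, by a mean of 0.56 ± 0.18 (SE), but the adjusted p was 0.15. In BAT Rxrg went from 9.93 to 10.14 in warm to 9.62 to 9.98 in cold (-0.23, adjusted p 0.46), and in mWAT it changed by -0.04.

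Ppargc1a encodes PGC-1α, the cold-inducible coactivator whose promoter is shown above. In sWAT it read 7.55, 7.44 and 8.68 at 28°C and 9.46, 9.34 and 9.23 at 6°C. The cold arrays were tight and all above the warm ones, but warm array 3 stood more than 1 unit above the others of its group. The mean difference was 1.46 ± 0.40 (SE), 2.74-fold, with an adjusted p of 0.093, and it ranged from 1.23 to 1.85 when arrays were left out singly. The 4 other Ppargc1a probe sets differed by 1.35 to 1.61 in the same direction, all with cold arrays above warm arrays, and the lowest adjusted p among them was 0.045.

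In BAT, Ppargc1a read 10.89, 10.39 and 10.48 at 28°C and 11.12, 11.46 and 11.25 at 6°C. Cold arrays were again all higher, and the difference was 0.69 ± 0.40 (SE, adjusted p 0.30). Its 5 probe sets gave 0.41 to 1.37 in BAT, and none passed, the lowest adjusted p being 0.017. In mWAT it read 8.83, 8.46 and 10.01 at 28°C and 8.95, 8.79 and 9.99 at 6°C. Array 3 of each temperature stood more than 1 unit above the others of its group, and the change between temperatures was 0.14 (adjusted p 1).

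Ppargc1b, encoding the related coactivator PGC-1β, read 8.21, 8.53 and 9.11 in sWAT at 28°C and 9.72, 9.50 and 9.49 at 6°C. The groups did not overlap, and the difference was 0.95 ± 0.23 (SE), 1.94-fold, with an adjusted p of 0.057. In BAT it read 11.28 to 11.72 in warm and 11.23 to 11.46 in cold (-0.19, adjusted p 0.67), and in mWAT the change was -0.13 (adjusted p 1). Pprc1, the PGC-1-related coactivator known from proliferating cells, went the other way in sWAT. It read 10.31, 10.24 and 10.08 at 28°C and 9.78, 9.87 and 9.83 at 6°C. All cold arrays were lower, by a mean of 0.38 that had an adjusted p of 0.36, and in BAT and mWAT the values were -0.17 and -0.02.

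Esrrg, an estrogen-related receptor typical of oxidative tissue, was the other gene called in sWAT. It read 7.69, 7.73 and 7.88 at 28°C and 9.42, 8.84 and 9.56 at 6°C. All cold arrays exceeded the warm ones, with array 2 the lowest of the cold group. The rise was 1.51 ± 0.20 (SE), 2.85-fold, at an adjusted p of 0.0015. The call was lost, with an adjusted p of up to 0.013, without warm array 1 or 2 or cold array 1 or 3, and the mean over the 3 Esrrg probe sets gave 0.70 (adjusted p 0.05), since the dimmer probe sets read 0.94 and -0.34. In BAT Esrrg went from 11.22, 11.38 and 11.54 to 11.85, 11.71 and 11.74 (0.39, adjusted p 0.24), and in mWAT from 7.98 to 8.44 in warm to 8.11 to 8.76 in cold (0.36, adjusted p 1).

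Esrra, the main estrogen-related receptor partner of PGC-1α in mitochondrial gene control, was higher on every cold array in BAT and in sWAT without passing in either. BAT read 10.08, 9.83 and 9.81 at 28°C and 10.51, 10.49 and 10.60 at 6°C, a difference of 0.63 ± 0.19 (SE, adjusted p 0.04). sWAT read 7.87, 7.75 and 8.20 in warm and 8.81, 8.57 and 8.66 in cold, a difference of 0.74 ± 0.19 (SE, adjusted p 0.065). The second Esrra probe set differed by -0.05 and 0.15 in the same comparisons. mWAT gave 7.84 to 8.51 and 7.93 to 8.43, a change of 0.09.

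**Figure D2:**
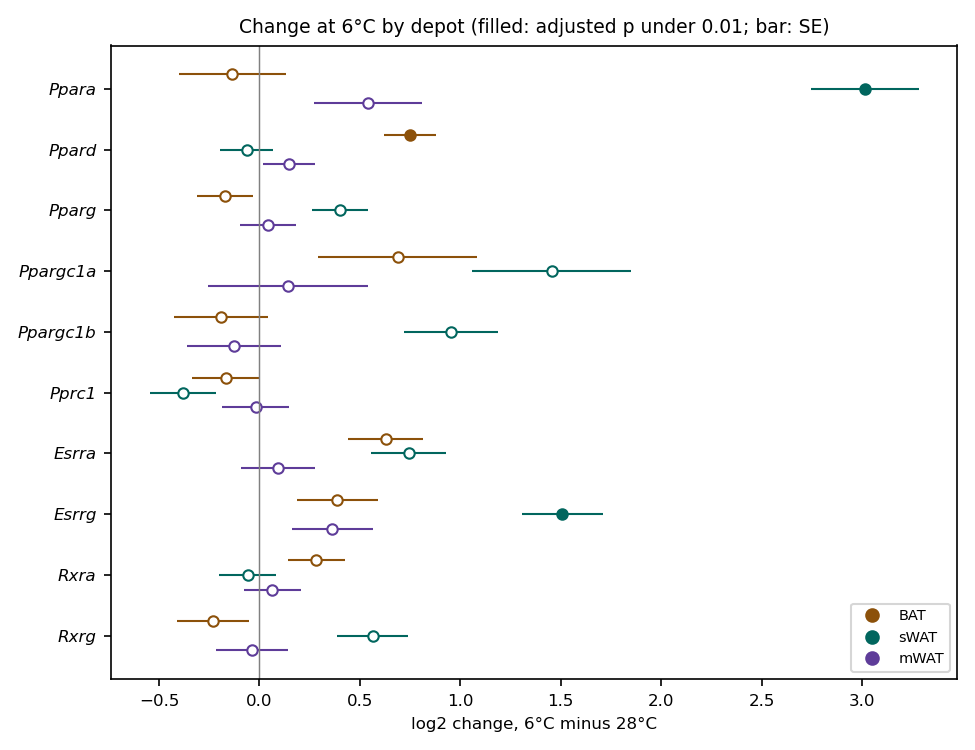
Cold change of the 10 genes in each depot, as log2 level at 6°C minus 28°C with its SE, filled where the adjusted p was below 0.01. Ppara in sWAT at 3.01 stands apart, Esrrg in sWAT at 1.51 and Ppard in BAT at 0.75 are the other filled points, and no mWAT point is filled.

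The sWAT and BAT cold changes were compared directly. Ppara rose more in sWAT than in BAT by 3.15 ± 0.38 (SE) on the log2 scale, at an adjusted p of 0.0015, and was the only member called, where 0.280% of all genes were called in that direction and 0.187% in the other. Leaving out BAT arrays 2 and 3 at 28°C, the ones rich in muscle transcripts, gave 3.29 at an adjusted p of 0.035. That fit has a single warm BAT array, which is assumed to vary like the other groups. Esrrg (1.12, adjusted p 0.062), Ppargc1b (1.15, adjusted p 0.10) and Rxrg (0.80, adjusted p 0.14) had larger sWAT values, and Ppard had a larger BAT value (-0.81, adjusted p 0.04), none past the threshold. For Ppargc1a the difference was 0.77, with a 95% interval of -0.43 to 1.97, and for Esrra it was 0.12, from -0.45 to 0.68.

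Between sWAT and mWAT, no cold change of a member differed at the threshold in the limma fit, although 6 members had an unadjusted p below 0.05. Ppara came nearest at 2.47 ± 0.38 (SE, adjusted p 0.061), and 0% of all genes were called in either direction in that comparison, where 2287 probe sets had an unadjusted p below 0.05. Between BAT and mWAT 0 members were called and 1, Ppard, had an unadjusted p below 0.05 (0.60, adjusted p 0.11), against 0.324% of all genes higher and 0.242% lower. Of all 45037 probe sets, 7051 had an unadjusted p below 0.05 there.

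The depots themselves differed in most of these genes. At 28°C, 7 members were higher in BAT than in sWAT and 1 was lower, against 14.5% and 13.0% of all genes. The same 7 genes were higher in BAT than in mWAT and 0 were lower, against 17.7% and 14.8%. They were Ppara, Pparg, Ppargc1a, Ppargc1b, Esrra, Esrrg and Rxrg. The sWAT and mWAT comparisons with BAT share the BAT arrays.

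Ppara showed the widest gap, 5.59 ± 0.27 (SE) over sWAT and 4.81 ± 0.27 over mWAT, with adjusted p values of 1.2e-08 and 1.9e-08. Because white fat values were near or below the array median, these gaps may be understated. Esrrg followed with 3.61 ± 0.20 and 3.23 ± 0.20, and Ppargc1b with 2.93 ± 0.23 and 2.71 ± 0.23. In each of these the lowest BAT array was well above the highest array of either white depot.

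Ppargc1a was 2.70 ± 0.40 (SE) above sWAT at an adjusted p of 0.00011, but only 1.49 ± 0.40 above mWAT at 0.0079. The gap to mWAT narrowed to 0.41 (adjusted p 0.27) with the T and B cell average as a covariate, and leaving out 1 array ended the call in 11 of 18 fits (adjusted p up to 0.044). Those 11 arrays were all 6 BAT arrays, the 3 sWAT arrays at 6°C and mWAT arrays 1 and 2 at 28°C. Esrra was 1.97 ± 0.19 above sWAT and 1.84 ± 0.19 above mWAT, and Rxrg 1.83 ± 0.18 and 2.33 ± 0.18. Pparg gave the narrowest gaps of the 7, 1.04 ± 0.14 and 1.51 ± 0.14.

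Pprc1 was the one member lower in BAT. It read 9.35, 9.35 and 9.39 in warm BAT against 10.07, 10.10 and 9.59 in warm mWAT, and its sWAT values are given above. BAT was below all the white fat arrays, by 0.85 ± 0.17 (SE) against sWAT (the value was -0.85, adjusted p 0.0011) and by 0.56 against mWAT (-0.56, adjusted p 0.015). With the T and B cell average as a covariate the sWAT value was -0.34 (adjusted p 0.048). Ppard (0.03 and 0.32) and Rxra (-0.38 and -0.15) were not called against either white depot at 28°C. Over all probe sets of the members, 16 of 22 were higher in BAT than in sWAT and 1 was lower, and 18 of 22 were higher than in mWAT and 0 lower. All 5 Ppargc1a probe sets were among the 18, with gaps of 1.43 to 2.31. Of all 45037 probe sets, 10301 were called in either direction between BAT and sWAT at 28°C, and 12230 between BAT and mWAT. Several of the 22 read the same gene, as the 5 of Ppargc1a do, so they are not independent of each other. The dim Ppard probe set had the same direction as the brighter one but was called, unlike it. It stood 1.06 (adjusted p 0.0039) and 1.36 (0.00045) above sWAT and mWAT, and a dim Rxra probe set was 0.98 (0.0034) above mWAT.

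**Figure D3:**
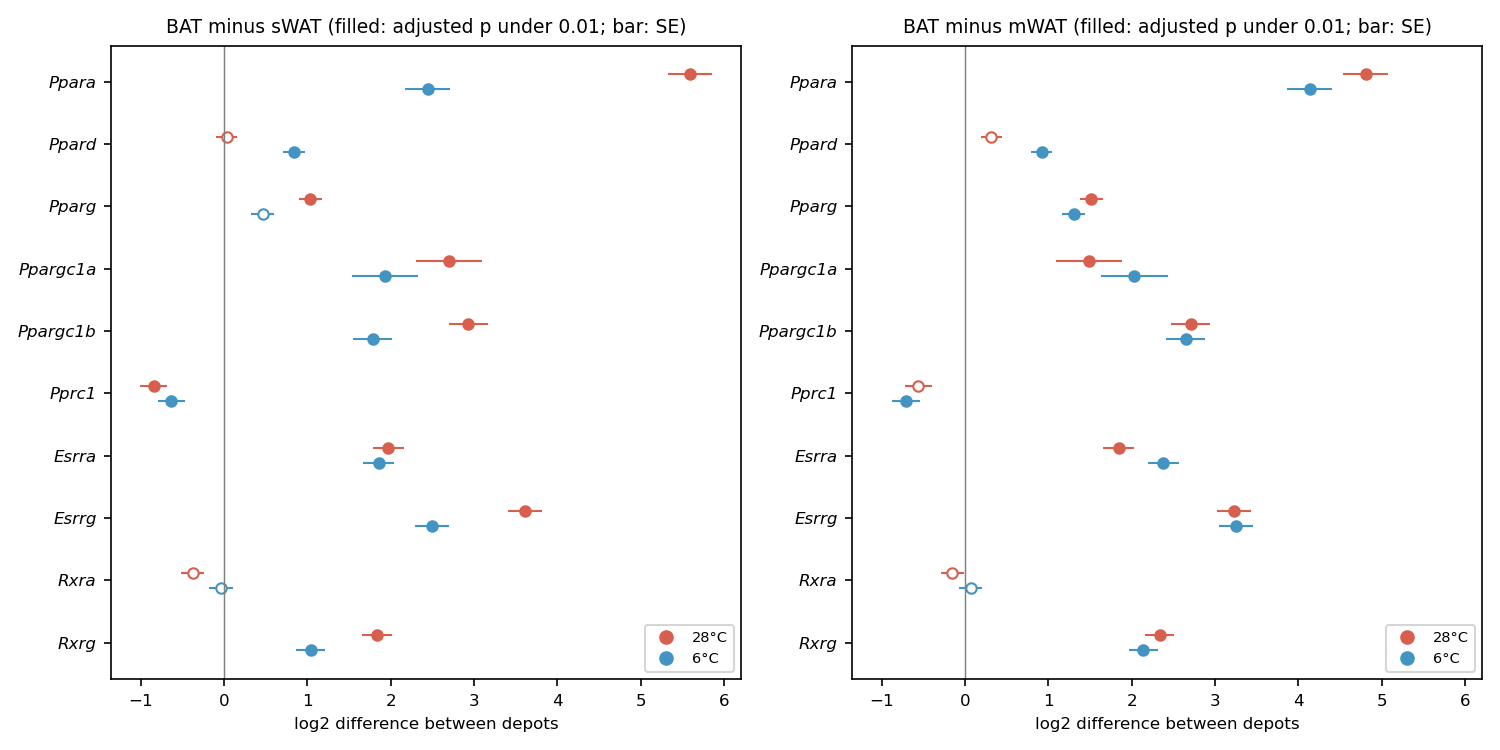
BAT minus sWAT (left) and BAT minus mWAT (right) for the 10 genes at 28°C and at 6°C, as log2 difference with its SE, filled where the adjusted p was below 0.01. Against sWAT the Ppara gap goes from 5.59 to 2.44 and the Esrrg gap from 3.61 to 2.49, whereas against mWAT the corresponding points lie closer together.

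At 6°C, 7 members were higher and 1 lower in BAT than in sWAT, against 13.4% and 13.4% of all genes, and 8 were higher and 1 lower than in mWAT, against 21.3% and 18.9%. Ppard now stood above both white depots, by 0.84 ± 0.13 (SE, adjusted p 0.00019) and 0.92 ± 0.13 (4.5e-05). Pparg no longer passed against sWAT (0.46, adjusted p 0.017). Pprc1 was lower than in sWAT by 0.63 (-0.63, adjusted p 0.008) and than in mWAT by 0.71 (-0.71, 0.0026), and with array medians set equal these values were -0.47 (0.032) and -0.52 (0.016). Gaps to sWAT were 2.44 for Ppara, 2.49 for Esrrg, 1.78 for Ppargc1b, 1.93 for Ppargc1a, 1.85 for Esrra and 1.04 for Rxrg. Gaps to mWAT were 4.13, 3.25, 2.65, 2.03, 2.38 and 2.14 for the same genes. With the T and B cell average as a covariate, Ppargc1a (0.80, adjusted p 0.043), Rxrg (0.62, 0.013) and Pprc1 (-0.17, 0.28) were no longer called between BAT and sWAT, and Ppargc1a (0.97, 0.011) and Pprc1 (-0.28, 0.062) were no longer called between BAT and mWAT.

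The white depots did not differ in any member at 28°C in the limma fit, with 5 members at an unadjusted p below 0.05, against 3.05% of all genes higher in sWAT and 4.82% lower. The nearest were Pparg (0.48, adjusted p 0.042), Ppargc1a (-1.21, 0.072) and Ppara (-0.78, 0.086). Of all 45037 probe sets, 9394 had an unadjusted p below 0.05 in this comparison. At 6°C 3 members were higher in sWAT than in mWAT and 0 lower, against 5.17% and 5.01% of all genes. Ppara was higher by 1.69 ± 0.27 (SE, adjusted p 0.00062), Rxrg by 1.10 ± 0.18 (0.00072) and Pparg by 0.84 ± 0.14 (0.00093). The probe sets of Esrrg differed here. The brightest gave 0.76 (adjusted p 0.02), a dimmer one was called higher in sWAT (1.74, 0.0016), and the dimmest gave -0.01 (0.99). For Ppara the order of the white groups turned with temperature. Warm sWAT was the lowest of the 6 groups at 5.97 ± 0.11 (SD, n = 3), under warm mWAT at 6.75 ± 0.71, and cold sWAT at 8.98 ± 0.09 was the highest white group, above cold mWAT at 7.29 ± 0.28.

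Placed in order of their means, the 6 groups gave a similar sequence for most members. Both BAT groups came first, and cold sWAT followed, for Ppara, Pparg, Ppargc1a, Ppargc1b, Esrra, Esrrg and Rxrg. For Ppargc1a, however, the cold sWAT arrays (mean 9.34) overlapped the cold mWAT arrays (mean 9.24). Warm sWAT came last for Ppara, Ppargc1a, Ppargc1b, Esrra and Esrrg, but its arrays overlapped those of the neighbouring group for Ppargc1a, Ppargc1b and Esrra. That place held for the brightest probe sets only in Esrrg and Esrra. On a dimmer Esrrg probe set warm sWAT averaged 5.86, above warm mWAT at 5.09 and cold mWAT at 5.05. On the second Esrra probe set it averaged 8.10, above both mWAT groups at 7.84. For Pparg and Rxrg the mWAT groups were last and overlapped each other. Ppard set cold BAT first and left the other 5 groups in a chain of overlapping neighbours. For Rxra every neighbouring pair overlapped. Pprc1 ran the other way, from warm sWAT through both mWAT groups to cold sWAT, each overlapping the next, with warm BAT and then cold BAT apart below them. Of the 7 genes high in BAT, the warm and cold BAT arrays overlapped for Ppara, Ppargc1b and Rxrg.

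**Figure D4:**
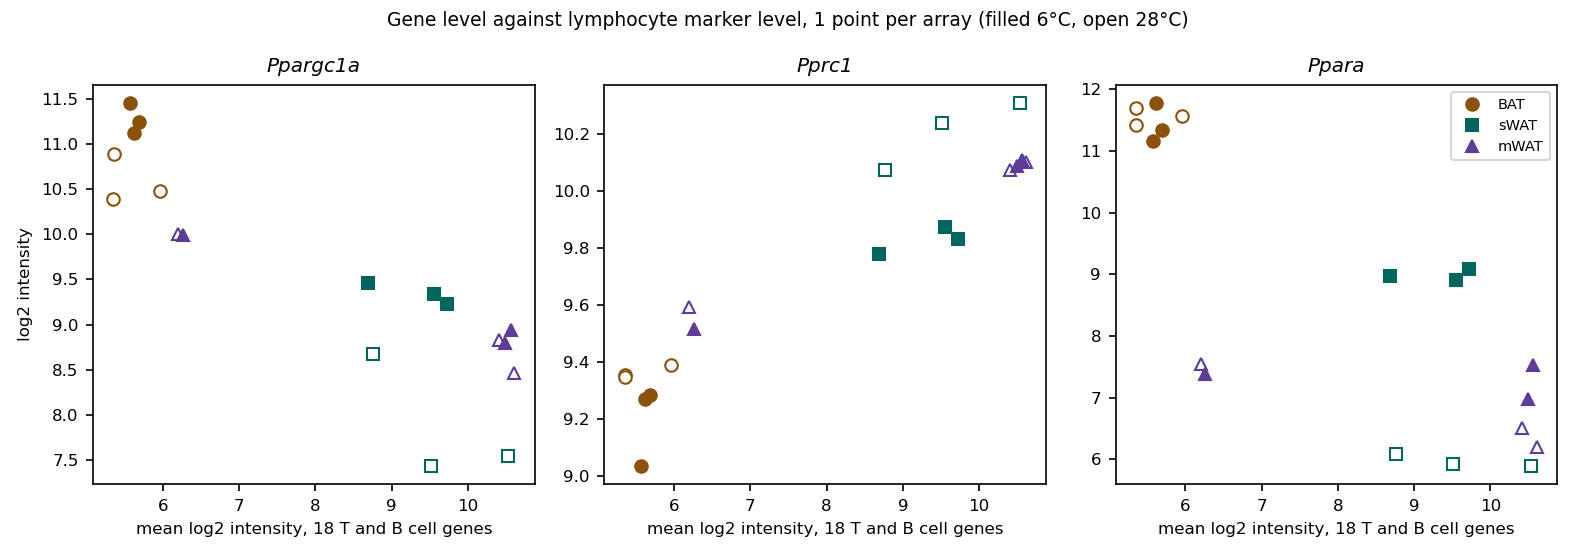
Level of Ppargc1a, Pprc1 and Ppara on each array against the mean log2 level of 18 T and B cell genes, with 1 point per array. mWAT array 3 of each temperature, at 6.20 and 6.26 on the horizontal axis, lies at 10.01 and 9.99 for Ppargc1a and at 9.59 and 9.51 for Pprc1, between the BAT arrays and the other mWAT arrays.

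Inside the white depots Ppargc1a tended to be higher, and Pprc1 lower, on the arrays of a group with fewer T and B cell transcripts. On mWAT arrays 1 and 2 of both temperatures, where their average was 10.41 to 10.61, Ppargc1a was 8.46 to 8.95 and Pprc1 10.07 to 10.11. On the arrays numbered 3, where it was 6.20 and 6.26, Ppargc1a was 10.01 and 9.99 and Pprc1 9.59 and 9.51. Both arrays also had the highest neuronal (11.73 and 11.52), mesothelial (11.42 and 11.56) and smooth muscle (13.67 and 13.69) averages of their groups. Their brown adipocyte averages (7.85 and 8.85) were the highest too. The other marker lists were not highest there at both temperatures. Warm sWAT array 3 had the lowest marker average of its group, 8.76 against 9.51 and 10.53, and the highest Ppargc1a, 8.68. The cold sWAT arrays, at 8.69 to 9.72, overlapped that range, and there Ppargc1a kept to 9.23 to 9.46. With the average as a covariate, an alternative chosen after the arrays were seen, the sWAT cold changes of Ppargc1a (1.37, adjusted p 0.0023) and Esrra (0.71, adjusted p 0.0034) passed beside those of Ppara and Esrrg. The part of lymphoid RNA in these values was not tested further, and that of the other cell types was not tested.

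Known targets of the receptors were followed as lists. Of 31 PPAR targets of fatty acid oxidation and uptake, 26 were measured, and 13 rose with cold in sWAT and 0 fell, with a median change of 0.90 beside -0.002 for all genes, of which 0.720% rose. Brown adipocyte markers rose in the same comparison, as given above for Ppara. Slc27a2, which takes up and activates long fatty acids, rose by 3.92 ± 0.34 (SE), 15.2-fold, at an adjusted p of 6.9e-05, and the fatty acid binding protein Fabp3 by 3.30 ± 0.30, 9.85-fold, at 0.00011. The peroxisomal thiolase Acaa1b rose by 1.80 and the lipid droplet protein Plin5 by 1.76. In BAT 2 of the 26 rose, beside 2.80% of all genes. They were the peroxisomal enzyme Ehhadh (2.07, adjusted p 0.00064) and Acaa1b (1.12, 0.0084), and the list median was 0.18. In mWAT 0 were called by limma, 10 had an unadjusted p below 0.05, and the median was 0.33.

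Of 26 adipocyte targets of PPARγ, 22 were measured. Cold raised 1 in sWAT, the lipid droplet protein Cidea (1.52 ± 0.24 (SE), adjusted p 0.005), and lowered 1 in BAT, Trarg1, a regulator of the glucose transporter GLUT4 (-0.91 ± 0.20, adjusted p 0.009), with list medians of 0.17 and 0.01. The paper treats Cidea as a BAT marker gene, and brown adipocyte markers rose in the sWAT comparison too. Counts of 1 in 22 stand beside 0.720% of all genes called higher in sWAT and 2.53% called lower in BAT. The median in mWAT was 0.13, with 0 called and 7 at an unadjusted p below 0.05.

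Mitochondrial targets of the estrogen-related receptors and PGC-1 were measured for 26 of 27 genes. In sWAT 8 of the 26 rose and 0 fell, beside 0.720% and 0.0220% of all genes. The list median was 0.56, beside -0.002 for all genes. Cox7a1, a cytochrome oxidase subunit that is also one of the brown adipocyte markers used here, rose by 3.18 ± 0.25 (SE, adjusted p 3.2e-05), Etfdh, which passes electrons from fatty acid oxidation to ubiquinone, by 1.22 ± 0.13, and the tricarboxylic acid cycle genes Idh3a and Ogdh by 0.98 and 0.97. In BAT and in mWAT 0 of the 26 were called in the limma fit, with 1 gene at an unadjusted p below 0.05 in each and medians of 0.03 and 0.11. Of 15 measured factors of mitochondrial DNA transcription and copying, 0 were called with cold in any depot and 1, 3 and 0 had an unadjusted p below 0.05 in BAT, sWAT and mWAT, the medians lying at -0.03 in BAT, -0.04 in sWAT and 0.07 in mWAT.

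**Figure D5:**
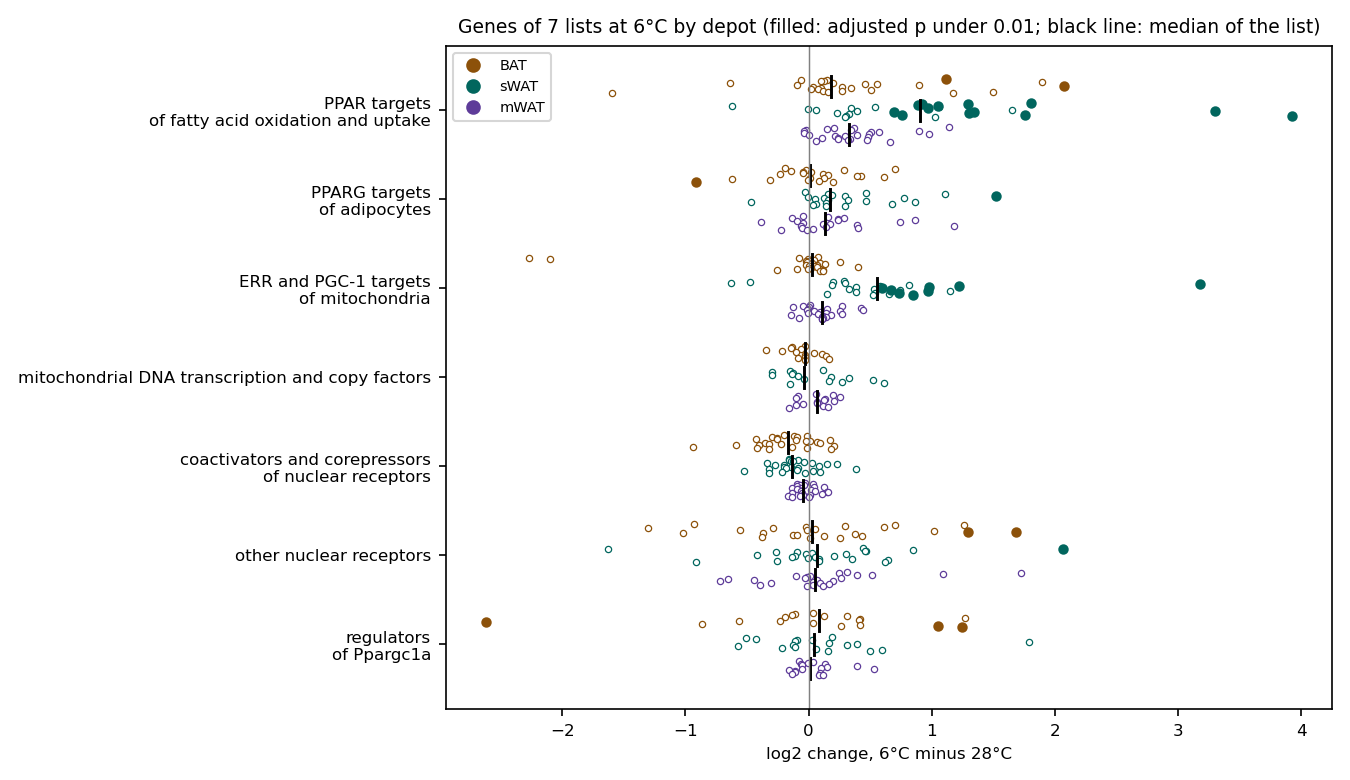
Log2 change at 6°C minus 28°C of the measured genes of 7 lists in BAT, sWAT and mWAT, 1 point per gene, filled where the adjusted p was below 0.01, with a black line at the list median. The PPAR oxidation list (median 0.90) and the ERR and PGC-1 list (median 0.56) are displaced in sWAT, and no mWAT point is filled.

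Between depots at 28°C, 24 of the 26 mitochondrial targets were higher in BAT than in sWAT and 24 higher than in mWAT, with 0 lower and medians of 1.19 and 1.30 beside 0.08 and 0.08 for all genes. Perm1, a regulator of mitochondrial genes in muscle that PGC-1 and ERR induce, was 4.45 ± 0.23 (SE) and 5.05 ± 0.23 higher, and the mitochondrial deacetylase Sirt3 2.05 and 2.04 higher. Of the mitochondrial DNA factors 8 and 9 of 15 were higher and 0 lower, with Tfb2m, a mitochondrial transcription factor, at 1.35 and 1.38. Of the PPAR oxidation list 15 were higher and 3 lower than in sWAT, and 16 higher and 1 lower than in mWAT. Slc27a2 was 6.04 and 7.21 higher in BAT, while Acot1, an acyl-CoA thioesterase, was lower than in sWAT (-2.26, adjusted p 0.0021). Of the 22 adipocyte PPARγ targets 6 were higher and 1 lower than in sWAT, and 9 higher and 3 lower than in mWAT, where all genes gave 14.5% and 13.0% against sWAT and 17.7% and 14.8% against mWAT. Against sWAT the glycerol channel Aqp7 (1.96) was above and the adipokine Retn (-1.36) below.

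Of 26 measured coactivators and corepressors 0 were called with cold in any depot in the limma fit, and 6 in BAT, 3 in sWAT and 0 in mWAT had an unadjusted p below 0.05, with medians of -0.17 in BAT, -0.13 in sWAT and -0.05 in mWAT. At 28°C 1 of the 26 was higher in BAT than in sWAT and 3 were lower, beside 14.5% and 13.0% of all genes. Against mWAT 6 were higher and 1 lower, beside 17.7% and 14.8%. Prdm16, a determinant of the brown and beige adipocyte programme, was 2.27 ± 0.23 (SE) higher in BAT than in sWAT and 2.61 ± 0.23 higher than in mWAT. Twist1 was 1.23 higher than in mWAT. The 3 genes lower than in sWAT were Nrip1, Tle3 (-0.755, adjusted p 0.00038) and Mybbp1a (-0.656, 0.0036). Nrip1, the corepressor RIP140 that restrains oxidative genes in white fat, gave -1.26 ± 0.24 (adjusted p 0.0008). Of 24 other nuclear receptors measured, 2 rose with cold in BAT and 1 in sWAT, beside 2.80% and 0.720% of all genes. In BAT they were Nr4a3 (1.69, adjusted p 0.0061) and Nr4a2 (1.29, adjusted p 0.0071), orphan receptors induced by cAMP. In sWAT it was the clock repressor Nr1d1 (2.06, adjusted p 0.0034). The progesterone receptor Pgr was lower in BAT than in sWAT (-5.50), in the comparison in which mammary epithelial markers differed most. It was also lower than in mWAT (-2.97, adjusted p 0.00017), where the median difference of the mammary markers was -0.05. The part of mammary cells in these values was not tested.

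Upstream regulators of Ppargc1a were measured for 18 of 19 genes. In BAT cold raised 2 of the 18 and lowered 1, beside 2.80% and 2.53% of all genes. It raised the cAMP-inducible kinase Sik1 (1.24 ± 0.15 (SE), adjusted p 0.00013) and the AMP-activated kinase subunit Prkaa1 (1.05 ± 0.16, adjusted p 0.00064). It lowered the p38 kinase activator Map2k6 (-2.62 ± 0.28, adjusted p 6.6e-05). In sWAT and mWAT 0 were called, with 4 and 0 at an unadjusted p below 0.05. At 28°C 5 of the 18 were higher in BAT than in sWAT and 0 lower, beside 14.5% and 13.0% of all genes, and 4 were higher and 1 lower than in mWAT, beside 17.7% and 14.8%. The largest difference from sWAT was that of Dio2, the enzyme that makes active thyroid hormone (2.75 ± 0.46, adjusted p 0.00029). Of the 9 brown adipocyte markers, 8 were called higher in BAT in that comparison, with a median of 2.75.

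For each member, the 3 genes whose level followed it most closely over the 18 arrays were listed. As a description, with points that share depots and groups, Pearson's r with Ppara was 0.988 for Pdpr, a regulator of pyruvate dehydrogenase phosphatase, 0.985 for the complex I subunit Ndufv2 and 0.981 for the carrier Slc25a42. Esrrg was closest to the coenzyme Q binding protein gene Coq10a (0.994) and the mitochondrial ribosome gene Mrps36 (0.989), and Esrra to Fastk (0.991), Fam151a (0.991) and the mitochondrial ribosomal protein gene Mrps5 (0.990). Ppargc1b was closest to Oxnad1 (0.990), Sirt3 (0.990) and the complex I subunit Ndufb5 (0.988), and Rxrg to Car13 (0.990), Fdx1 (0.987) and Ptges2 (0.987). Pparg followed Phb2 (0.976), Galm (0.974) and P2rx5 (0.973), and Ppargc1a followed Itpk1 (0.975), Hoxa4 (0.974) and Arl2 (0.964). The nearest genes were Tmem208 (0.963), Chid1 (0.958) and Alg14 (0.951) for Ppard and Csnk1g1 (0.976), Nxf1 (0.975) and Arpc5 (0.973) for Pprc1. Rxra, whose level varied little, had no close companion, with 0.795 for Lrrc59 as the highest value.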

How the data were processed

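Levels came from the authors' deposited intensity table of 45101 probe sets on 18 Affymetrix arrays, made by background adjustment, summarization and normalization with affy in R; the algorithm is not given in the sources used here, nor are detection values. The methods and the figure legends name different array types. Arrays were grouped by depot and temperature from source, title and description, which a characteristics tag contradicts for some samples. Here 64 control probe sets were left out, the deposited values were log2 transformed, and group means were fitted to all 18 arrays with limma 3.58.1 (R 4.3.3), adjusting p-values by Benjamini-Hochberg over 45037 probe sets with a threshold of 0.01, as the methods do. A gene was read from its brightest probe set naming it alone, and 932 probe sets naming several genes were not used to name a gene. Promoter windows came from RefSeq (GRCm38.p6). The code was tested on simulated data. The members, the gene lists and the tests were chosen with earlier results of these data known, the lists by textbook function. From each list up to 4 called genes with the largest change were named. With 3 arrays per group, their number limits the precision. Alternatives covered threshold, normalization, probe summary, marker covariates and left-out arrays.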

Additional observations from a re-analysis of the deposited data

Results flagged for a closer look

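The cold change of Ppara differed between sWAT and BAT: the rise was larger in sWAT by 3.15 ± 0.38 (SE) on the log2 scale, with an adjusted p of 0.0015 for the difference itself in the limma fit. In sWAT all 3 cold arrays lay above all 3 warm arrays, while in BAT the arrays of both temperatures overlapped.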

How the results depend on the processing

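No member changed direction past a threshold under any alternative, and quantile normalization and the log2 of value plus 16 left every member's call as it was. The count of members called in BAT with cold (1) became 2 at an adjusted p of 0.05, without both mesenteric arrays 3 or with the T and B cell covariate, when Esrra joined Ppard, and 0 with a 2-fold minimum, with only the compared groups fitted, with the mean of a gene's probe sets (Ppard 0.29), with the skeletal muscle covariate, and without BAT arrays 2 and 3 at 28°C. In sWAT with cold (2) it became 1 with only the compared groups fitted or the mean of probe sets, 3 without both mesenteric arrays 3 (Esrra 0.74, adjusted p 0.0095), and 4 with the T and B cell covariate, alone or with that of muscle. Between sWAT and mWAT at 28°C (0) it became 1 at an adjusted p of 0.05 (Pparg), 2 with the T and B cell covariate and 1 with both covariates. At 6°C (3) it became 5 at an adjusted p of 0.05, 1 with only the compared groups fitted, and 6 with the T and B cell covariate or both. Between BAT and sWAT at 6°C (8) it became 5 with the T and B cell covariate. The difference in cold change between sWAT and BAT (1) became 2 at an adjusted p of 0.05 or with the T and B cell covariate, and 0 without BAT arrays 2 and 3 at 28°C. That between sWAT and mWAT (0) became 1, Ppara, with the T and B cell covariate. The T and B cell covariate, alone or with muscle, and the loss of BAT arrays 2 and 3 were chosen after seeing the data. The latter leaves 1 warm BAT array, assumed to vary like the other groups. The causes were not tested.

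Leaving out 1 array at a time gave 0 to 1 members in BAT and 1 to 2 in sWAT with cold, 0 to 0 in mWAT, 8 to 8 and 7 to 9 between BAT and sWAT at 28°C and 6°C, 6 to 8 and 8 to 9 between BAT and mWAT, and 3 to 4 between sWAT and mWAT at 6°C. Pprc1 lost its call between BAT and sWAT at 6°C in 11 of 18 such fits, with an adjusted p of up to 0.036 (any BAT array, any cold sWAT array, or warm sWAT array 1 or 2), and between BAT and mWAT at 6°C in 3 (cold BAT array 2, cold mWAT array 1 or 2), up to 0.016. No paired analysis was possible because the labels give no replicate numbers and tie no arrays to 1 animal. Signals below the array medians, as for Ppara in warm sWAT and on part of the mWAT arrays and for several dimmer probe sets, limit what these fold changes can show.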
